A study of Arabidopsis thaliana with 32 samples.

Results

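SKU5 and its relatives SKS1, SKS6 and SKS17 were followed through every deposited comparison of root RNA from Arabidopsis thaliana seedlings grown on the International Space Station or on the ground. They were found by gene identifier, which gave 15 entries among the 10961 entries that the 11 tables hold for 4882 loci. The SKU5 family numbers 19 genes, and 14 of them are in no table. SKS5 is the remaining family gene that is listed, with 3 entries, and is described beside the others. The listed share of the family was 26.3%, against 18.6% of the 27562 protein-coding genes of the reference.

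SKU5 encodes a glycoprotein that is attached to the outer face of the plasma membrane by a lipid (GPI) anchor and is also found in the cell wall. The family belongs by sequence to the multicopper oxidases, the superfamily of laccases and ascorbate oxidases, and takes its name from the mutant sku5, whose roots slant to the side more than wild-type roots do when they grow along a tilted agar surface. SKU5 is known for its part in directional growth of the root, and SKS6 for a part in vein patterning of cotyledons.

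Roots came from the WS (Wassilewskija) cultivar, the wild type, and from a line labelled Sku5, in 8 groups of 4 samples each: WS and sku5, in spaceflight and on the ground, at 4 d and 8 d. The sources used here do not give the allele of the sku5 line or the place of its mutation. All groups grew from sterilized dry seed on upright plates of solid medium in Veggie growth units, with the ground unit in a simulator of the station's environment, and whole roots were cut from seedlings preserved in RNAlater. A sample pooled several roots. Each table gives 1 value per group in FPKM, a read density per length of transcript, so the spread between samples cannot be seen and depth per sample is unknown. A table lists just the loci that the authors' Cuffdiff test marked significant at a q-value under 0.05. A gene that is absent from a table therefore has no value there, and its absence does not show that it was unchanged. No table sets spaceflight sku5 against spaceflight WS at 4 d among those used here. The log2 fold change divided by the authors' test statistic is given below as its standard error, which is a rough scale. It can be wider than the authors' own p-values imply. For spaceflight, SKU5 in WS at 8 d had a test statistic of -1.86 with a Cuffdiff p-value of 0.0002. An interval on this scale that fails to separate 2 effects therefore says little about whether they differ.

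The family genes share short identical stretches of coding sequence. In RefSeq's TAIR10.1 annotation the coding sequences of the 5 listed genes were 59.1% to 72.8% identical in their 10 pairs, with SKS5 and SKS6 the closest. The longest identical run was 13 to 23 bases in those pairs. Over all of the other 18 family genes, the longest run shared with SKU5 was 32 bases, with SKS3, a gene that is in no table. This stretch is shown in both genes because it is the longest over which a read of SKU5 could not be told from one of a relative, although the sources used here do not state the read length. Capitals mark the identical run and lower-case letters the 10 bases on each side, on the coding strand. Counted from base 1 of the start codon, the sequence shown for SKU5 covers bases 306 to 357 and that for SKS3 bases 318 to 369.
SKU5: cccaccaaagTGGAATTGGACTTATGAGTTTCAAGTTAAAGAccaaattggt
SKS3: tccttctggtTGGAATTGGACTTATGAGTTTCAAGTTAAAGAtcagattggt

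The listed loci of SKU5, SKS1 and SKS5 have the size of their genes. SKU5 (AT4G12420) lies on chromosome 4 from 7143426 to 7147294, SKS1 (AT4G25240) on chromosome 4 from 12646127 to 12649674 and SKS5 (AT1G76160) on chromosome 1 from 28144464 to 28147656, all in the authors' coordinates, for a build that the sources used here do not name. The locus of SKS6 (AT1G41830), on chromosome 1 from 15361064 to 15406340, spans 45277 bases, 10.3 times the length of the gene in the reference. That of SKS17 (AT5G66920), on chromosome 5 from 26274156 to 26318110, spans 43955 bases, 14.9 times the gene's length. Each carries a single gene name and overlaps no other listed locus. Whether reads from neighbouring genes enter the values of SKS6 and SKS17 was not tested.

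SKU5 was lower in sku5 in all 3 genotype comparisons, and its relatives SKS1, SKS5, SKS6 and SKS17 were higher in sku5 in the spaceflight comparison of 8 d. In the authors' deposited tables SKU5 stood in the mutant at 26.9% of its WS level on the ground at 4 d, 29.9% on the ground at 8 d and 22.98% in spaceflight at 8 d. With the error of the fold change taken as normal, the 95% intervals of these percentages ran from 14.8 to 48.7, from 21.7 to 41.3 and from 16.5 to 32.0, in the same order. By the test statistic it ranked first among loci lower in sku5 on the ground at 8 d and in spaceflight at 8 d. On the ground at 4 d it ranked 7th. These ranks leave out loci listed at 0, which have no finite fold change. By size of change, among all of the 207, 829 and 198 loci lower in sku5, those at 0 included, it ranked 10th, 13th and 39th in the same order. RNA of SKU5 was thus listed above 0 in all 3 sku5 groups compared with WS, and the tables do not show which part of the transcript the reads came from.

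**Figure D1:**
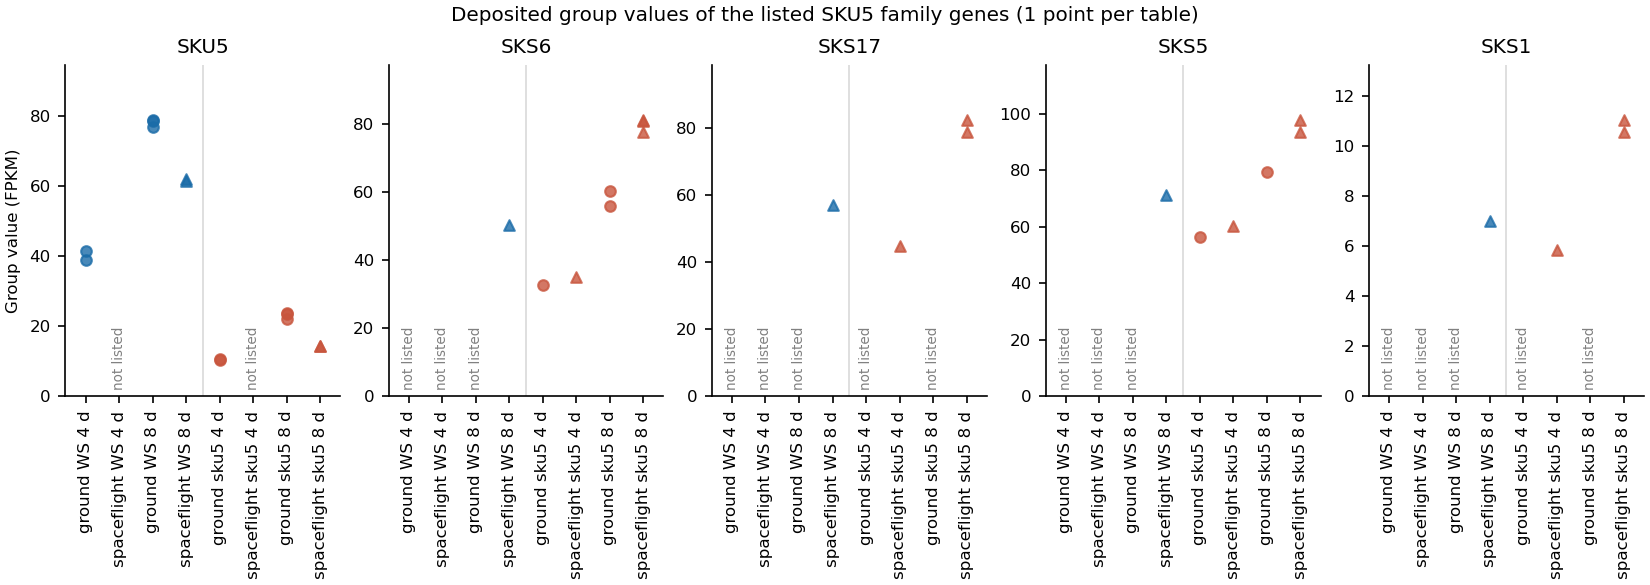
Group values in FPKM on the vertical axis for the 5 listed SKU5 family genes in each of the 8 groups, with 1 point for each deposited table that lists the gene and no error bars because the tables hold no values per sample. Circles are ground and triangles spaceflight groups, WS in blue and sku5 in red. SKU5 is lower in each sku5 group shown than in any WS group shown, and the SKS genes are highest in spaceflight sku5 at 8 d among the groups where they are listed. SKS1 and SKS17 are listed only in comparisons where that group is the higher, so for them this follows from the listing.

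The level of SKU5 is listed for 6 groups. From low to high in the authors' deposited tables, it stood at 10.4 to 10.7 FPKM in ground sku5 at 4 d, at 14.2 FPKM in spaceflight sku5 at 8 d, and at 22.1 to 23.8 FPKM in ground sku5 at 8 d. WS followed in the authors' deposited tables with 38.9 to 41.3 FPKM on the ground at 4 d, 61.3 to 61.9 FPKM in spaceflight at 8 d and 76.7 to 78.6 FPKM on the ground at 8 d. Each range runs over the tables that list the group. All sku5 group values lay below all WS group values among the groups listed. Whether samples of the genotypes overlap cannot be seen from group values. How many other loci separate by genotype in this way was not counted. Of neighbours in this order, the pairs within sku5 at 8 d and within WS at 8 d were compared directly and differed by the authors' test. The other neighbours in the order (ground sku5 4 d and spaceflight sku5 8 d, ground sku5 8 d and ground WS 4 d, ground WS 4 d and spaceflight WS 8 d) are not set against each other in any table.

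Of 2017 loci listed for genotype in any table, SKU5 was among 14 that were listed in all 3 genotype comparisons, which share no libraries. It was among 9 that were lower in sku5 in all 3. The log2 fold changes of SKU5 in the authors' deposited tables were -1.90 with a standard error of 0.44 on the ground at 4 d (q = 0.00558), -1.74 with 0.24 on the ground at 8 d (q = 0.00381) and -2.12 with 0.24 in spaceflight at 8 d (q = 0.00182). All 3 have a Cuffdiff p-value of 5e-05, the smallest given for any entry, so their q-values do not rank the evidence. The genotype difference was not shown to vary with the setting. The effect in spaceflight less that on the ground at 8 d was -0.38, with a standard error of 0.34 and an interval from -1.05 to 0.29 if the error is taken as normal. The effect at 8 d less that at 4 d on the ground was 0.15, with an interval from -0.82 to 1.13. These wide intervals do not show that the effects were equal. Of the 4 genes, SKU5 was listed for genotype on the ground at 4 d and 8 d, where the background was 7.8% (3.75% higher in sku5, 4.06% lower) and 10.8% (6.51% higher, 4.24% lower) of the 4882 loci. In the 4 d table GEA6 and SESA3, 2 of 11 seed markers, were also lower in sku5, with a sum of 2.08 against 205 FPKM and SESA3 at 0 in sku5, and no green-tissue or root marker was listed. In the 8 d ground comparison RBCS1A was the marker listed, at 69.4 FPKM in sku5 and 96.5 FPKM in WS. Their part in the difference was not tested.

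In spaceflight at 8 d all 4 genes were listed for genotype, SKU5 lower and SKS1, SKS6 and SKS17 higher in sku5, as was SKS5. The background of that comparison was 28.9% of the 4882 loci. Over the whole family 5 of 19 genes were listed. SKS1 and SKS17 are listed only here and for age in spaceflight sku5. That all 4 genes were listed thus follows largely from which genes were listed anywhere. The authors' deposited table gives SKS6 80.9 FPKM in sku5 and 50.2 FPKM in WS (log2 fold change 0.69, SE 0.23, q = 0.00182). It gives SKS17, in the same authors' deposited table, 82.1 FPKM in sku5 and 56.8 FPKM in WS (log2 fold change 0.53, SE 0.34, q = 0.0307). SKS1, the least abundant of them per length, is listed in the authors' deposited table with 11.02 FPKM in sku5 and 7.002 FPKM in WS (log2 fold change 0.65, SE 0.36, q = 0.0167). All were thus higher in sku5 than in WS by less than 2-fold. In the authors' deposited table SKS5 has 97.7 FPKM in sku5 and 71.4 FPKM in WS (log2 fold change 0.45, SE 0.20, q = 0.00182). By size these rises were ordinary for the table, whose median absolute change was 0.54. By test statistic SKS6 ranked 21st among loci higher in sku5. That rank leaves out loci listed at 0 in WS, which are counted in the 580 loci higher in sku5. Loci higher in sku5 made up 11.9% of the 4882 and loci lower 17%. The median log2 fold change of the 4 genes was 0.59, which joins SKU5 at -2.12 with the SKS members at 0.53 to 0.69 and describes neither. The median of all loci listed in the comparison was -0.38.

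**Figure D2:**
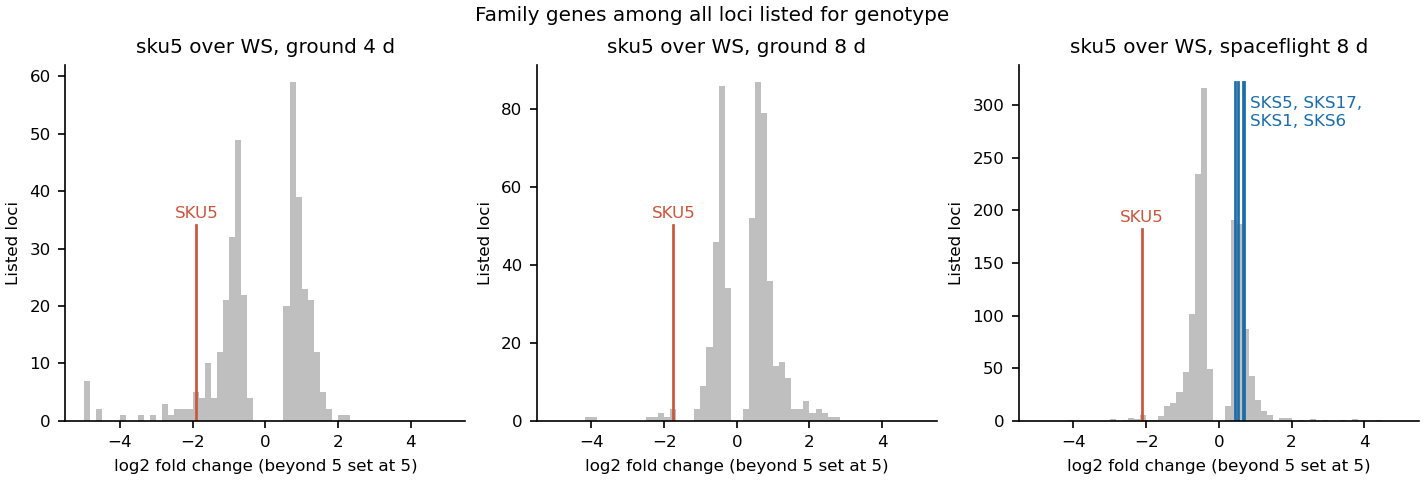
Number of listed loci by log2 fold change of sku5 over WS in each of the 3 genotype tables, with coloured lines at the family genes. Loci listed at 0 in a group are not drawn, and values beyond 5 are set at 5. SKU5 lies in the lower tail of each histogram, at -1.90, -1.74 and -2.12, and the SKS genes lie between 0.45 and 0.69 in the spaceflight table, within the main body of higher loci.

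Added together in the spaceflight table of 8 d, the 4 listed SKS genes stood at 272 FPKM in sku5 and 185 FPKM in WS, a difference of 86.3 FPKM, whereas SKU5 was lower by 47.7 FPKM (61.9 less 14.2). The sum of all 5 listed family genes was 286 FPKM in sku5 and 247 FPKM in WS. These are sums of the authors' group values and carry no error of their own. The SKS genes in them are those that this same comparison listed as higher, so the direction of their sum was fixed by that choice. The values of SKS6 and SKS17 come from loci 10.3 and 14.9 times as long as their genes. Whether the SKS values and the lower SKU5 are linked was not tested. The 14 other family genes have no value in these tables and are not in the sums. In the same table the root epidermis gene WER was listed at 64.7 FPKM in sku5 against 88.9 in WS, the leaf gene RBCS1A at 63.3 against 98.5, and the seed albumin gene SESA2 at 13.9 against 0. These were 1 of 10 root, 1 of 10 green-tissue and 1 of 11 seed markers looked up, and their part in the result was not tested.

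With age, family genes were listed as higher at 8 d than at 4 d and none was listed as lower. SKU5 was the member listed for age in WS on the ground, against a background of 22.6% (10.5% higher at 8 d, 12.1% lower), with 76.7 FPKM against 41.3 FPKM per the authors' deposited table (log2 fold change 0.89, SE 0.27, q = 0.00217). In sku5 on the ground, where the background was 20.9% (10.5% higher, 10.3% lower), SKU5 and SKS6 were listed. SKU5 had, in the authors' deposited table, 22.1 FPKM against 10.7 FPKM (log2 fold change 1.04, SE 0.41, q = 0.00209). The rise of SKU5 in sku5 less that in WS was 0.15, with an interval from -0.81 to 1.11, which includes 0 on this rough scale. SKS6 rose in sku5 on the ground from 32.6 FPKM to 55.8 FPKM per the authors' deposited table (log2 fold change 0.77, SE 0.42, q = 0.0242), and SKS5 from 56.5 to 79.6 FPKM (q = 0.0101).

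In spaceflight the age comparison of sku5 listed SKS1, SKS6 and SKS17, all higher at 8 d, and did not list SKU5. The background was 36.4% of the 4882 loci, with 14.3% higher and 22.1% lower at 8 d. Over the whole family 4 of 19 genes were listed, SKS5 included. The median log2 fold change was 0.85 over the 3 listed members and -0.65 over all listed loci. SKS6 rose from 35.1 FPKM to 77.7 FPKM per the authors' deposited table (log2 fold change 1.15, SE 0.34, q = 0.00125). It was the only change of at least 2-fold among the SKS genes in any table. SKS17 rose from 44.7 FPKM to 78.8 FPKM per the authors' deposited table (log2 fold change 0.82, SE 0.52, q = 0.0407). SKS1 rose from 5.86 FPKM to 10.6 FPKM per the authors' deposited table (log2 fold change 0.85, SE 0.51, q = 0.0228), and SKS5 from 60.4 to 93.7 FPKM (0.64, SE 0.29, q = 0.00125). The spaceflight sku5 libraries of 8 d entered this table, the genotype table and the spaceflight table of 8 d, so the high SKS values of that group are not separate results. In WS in spaceflight no family gene was listed for age, against a background of 22% (9.61% higher, 12.4% lower).

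**Figure D3:**
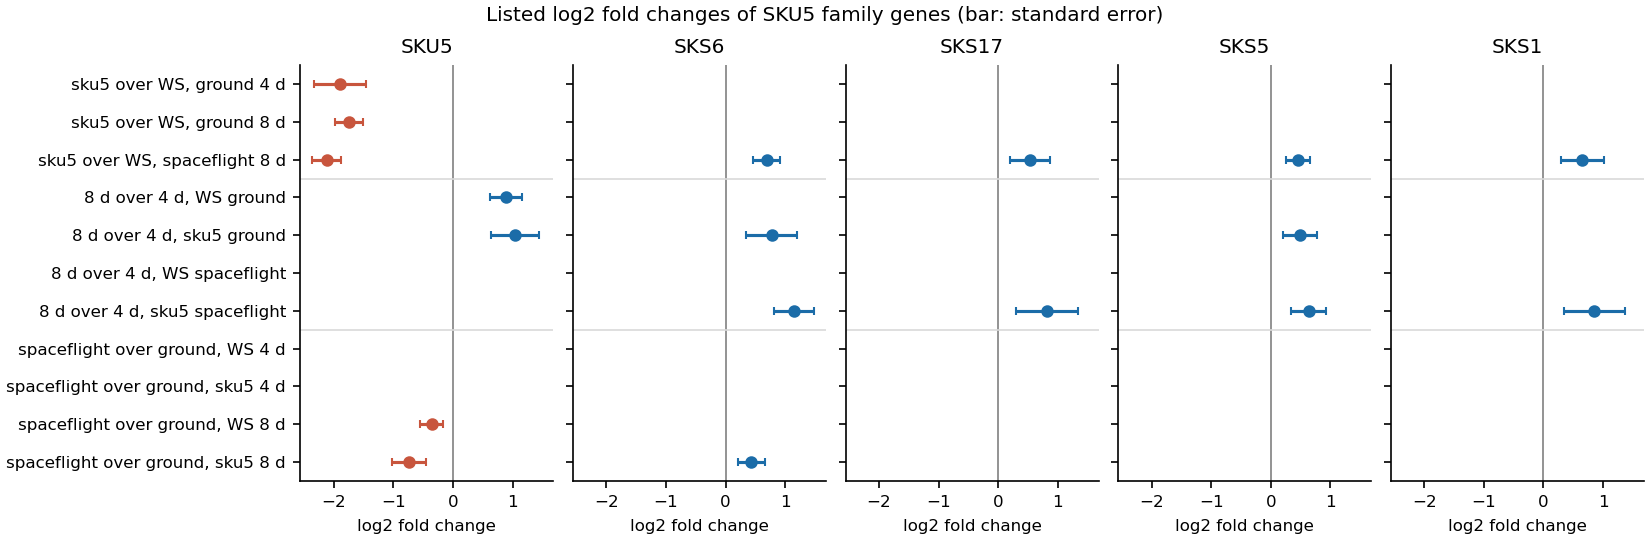
Log2 fold changes on the horizontal axis of the 5 listed family genes in each of the 11 comparisons, first-named group over second, with bars of 1 standard error; an empty row means that the gene is not listed. SKU5 is at or below -1.74 in the 3 genotype rows, and the SKS genes have positive values wherever they are listed, the largest 1.15 for SKS6 with age in spaceflight sku5.

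Markers of green tissue and of seed reserves that were listed for age were all lower at 8 d. In spaceflight sku5, 5 of the 10 green-tissue markers were listed, all lower at 8 d, and their values summed to 79.7 FPKM at 8 d and 246 FPKM at 4 d. Of the 11 seed markers 6 were listed, all lower at 8 d, with sums of 246 and 6478 FPKM. On the ground 4 green-tissue markers were listed in sku5, with sums of 87.2 and 256 FPKM, and 5 in WS, with sums of 106 and 260 FPKM. On the ground 4 seed markers were listed at 0 at 8 d in WS, and none was listed in sku5. Of the 10 root markers, SCR, a gene of the endodermis, was listed in ground WS, with 7.87 FPKM at 8 d and 13.3 FPKM at 4 d. None was listed in sku5 in either environment. In spaceflight WS, SCR was lower at 8 d (6.35 against 13.6 FPKM) and WER was higher (80.2 against 40.9 FPKM). There 5 green-tissue markers were also lower at 8 d, with sums of 102 and 528 FPKM, and 3 seed markers were at 0 at 8 d. In whole roots, more cells of a type and more RNA per cell cannot be told apart, and the part of these markers in the rises of the family was not tested.

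The age effect of SKS6 was compared between environments within sku5, over libraries that the tables do not share. Its log2 rise in spaceflight less that on the ground was 0.37, with a standard error of 0.55 and an interval from -0.70 to 1.44. For SKS5 the same difference was 0.14, with an interval from -0.66 to 0.94. Neither difference was larger than its error. SKS1 and SKS17 are not listed on the ground, so no difference could be formed for them.

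Spaceflight was set against ground in 4 tables, and the family was listed at 8 d alone. In WS SKU5 was the member listed, against a background of 18.2% (8.4% higher, 9.79% lower), and in sku5 SKU5 and SKS6 were listed, against a background of 33.8%. SKU5 was lower in spaceflight in both genotypes and SKS6 higher in sku5. SKU5 had, in the authors' deposited table, 61.3 FPKM against 78.6 FPKM in WS (log2 fold change -0.36, SE 0.19, q = 0.00797). In sku5 SKU5 had, in the authors' deposited table, 14.2 FPKM against 23.8 FPKM (log2 fold change -0.74, SE 0.29, q = 0.00136). The effect in sku5 less that in WS was -0.38, with an interval from -1.06 to 0.30, which includes 0. SKS6 had, in the authors' deposited table, 81.0 FPKM against 60.1 FPKM in sku5 (log2 fold change 0.43, SE 0.23, q = 0.00246). In that sku5 comparison 11.1% of the 4882 loci were higher and 22.7% lower. Of the 11 seed markers, 5 were also listed there, all higher in spaceflight, with sums of 255 against 3.93 FPKM, and OLEO4 and SESA2 were at 0 on the ground. The photosystem gene PSAD1 was listed as lower, with 8.80 FPKM in spaceflight and 15.7 FPKM on the ground. Their part in the result was not tested. In WS at 8 d no green-tissue, seed or root marker was listed. At 4 d, where the backgrounds were 2.62% in WS (1.29% higher, 1.33% lower) and 20.6% in sku5 (12.3% higher, 8.34% lower), no family gene was listed, and values of genes that did not pass the authors' Cuffdiff test are not in the tables used here.

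Few of these changes reached 2-fold. SKU5 passed that size in all 3 genotype comparisons, where the share of the 4882 loci listed with at least 2-fold was 3.2% on the ground at 4 d, 1.52% on the ground at 8 d and 2.85% in spaceflight at 8 d. For age, SKU5 passed it in ground sku5, where the share was 9.95%, and SKS6 in spaceflight sku5, where it was 17.8%. No member passed it for age in ground WS or spaceflight WS, with shares of 10.4% and 9.01%. None passed it for spaceflight in WS at 4 d (1.66%), sku5 at 4 d (13%), WS at 8 d (2.93%) or sku5 at 8 d (4.98%).

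Of 22 laccase, ascorbate oxidase and LPR genes of the wider superfamily, 9 loci are listed in any table, in 28 entries, beside the 18.6% of protein-coding genes listed in any table. Under spaceflight 11 of 13 entries, from 6 loci, were lower and the other two, of a single locus, higher. By comparison, 3 of 3 entries were lower in sku5 at 4 d, where 40.4% of all listed loci were lower, 3 of 4 in WS at 8 d, where 53.8% were, and 5 of 6 in sku5 at 8 d, where 67.2% were. The count at 8 d in sku5 thus goes the way most loci of that comparison went, and entries of the same locus are not independent. LAC16 had, in the authors' deposited table, 0.764 FPKM against 3.23 FPKM at 4 d in sku5 (log2 fold change -2.08, SE 1.21, q = 0.0216). LAC3 had, in the authors' deposited table, 9.85 FPKM against 20.4 FPKM at 8 d in WS (log2 fold change -1.05, SE 0.30, q = 0.00259). LAC5 stood at 2.98 against 5.99 FPKM at 8 d in sku5, and LAC1 at 7.43 against 14.2 FPKM at 4 d in sku5, in the authors' deposited tables. In the 4 d comparison of sku5, 2 of 11 seed markers were listed as higher in spaceflight, GEA6 with 1205 FPKM against 2.06 FPKM and SESA3 with 66.2 FPKM against 0, and no green-tissue or root marker was listed. Their part in the laccase values was not tested. The locus that rose, in both genotypes at 8 d, merges the ascorbate oxidase gene AT4G39830 with AT4G39800, so the values cannot be given to either. Whether the superfamily and the SKU5 family differ in their response to spaceflight was not tested.

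Laccases were also listed for age and genotype. Laccases polymerise lignin monomers in cell walls, and LAC4, also called IRX12, is a main laccase of lignifying xylem. In sku5 all 8 entries of the superfamily list for age were higher at 8 d. Of these, 4 were on the ground, where 50.4% of all listed loci were higher, and 4 in spaceflight, where 39.4% were. They come from LAC1, LAC3, LAC4, LAC5 and the ascorbate oxidase gene AT5G21105, 5 loci, since LAC3, LAC4 and LAC5 are in both tables. Among them were LAC5 at 5.56 against 0.774 FPKM on the ground (log2 fold change 2.84, SE 0.99, q = 0.00378) and LAC4 at 13.3 against 6.15 FPKM on the ground (log2 fold change 1.11, SE 0.45, q = 0.00209) in the authors' deposited table. In WS LAC7 was lower at 8 d on the ground, with 12.2 FPKM against 25.1 FPKM per the authors' deposited table, as was the merged locus. For genotype all 5 entries were higher in sku5, 3 on the ground at 8 d, where 60.6% of all listed loci were higher, and 2 in spaceflight at 8 d, where 41.2% were. LAC5 stood at 5.92 against 2.62 FPKM, LAC9 at 6.93 against 3.41 FPKM and LAC7 at 22.5 against 12.5 FPKM on the ground at 8 d per the authors' deposited table, and LAC3 at 16.7 against 9.95 FPKM in spaceflight at 8 d.

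**Figure D4:**
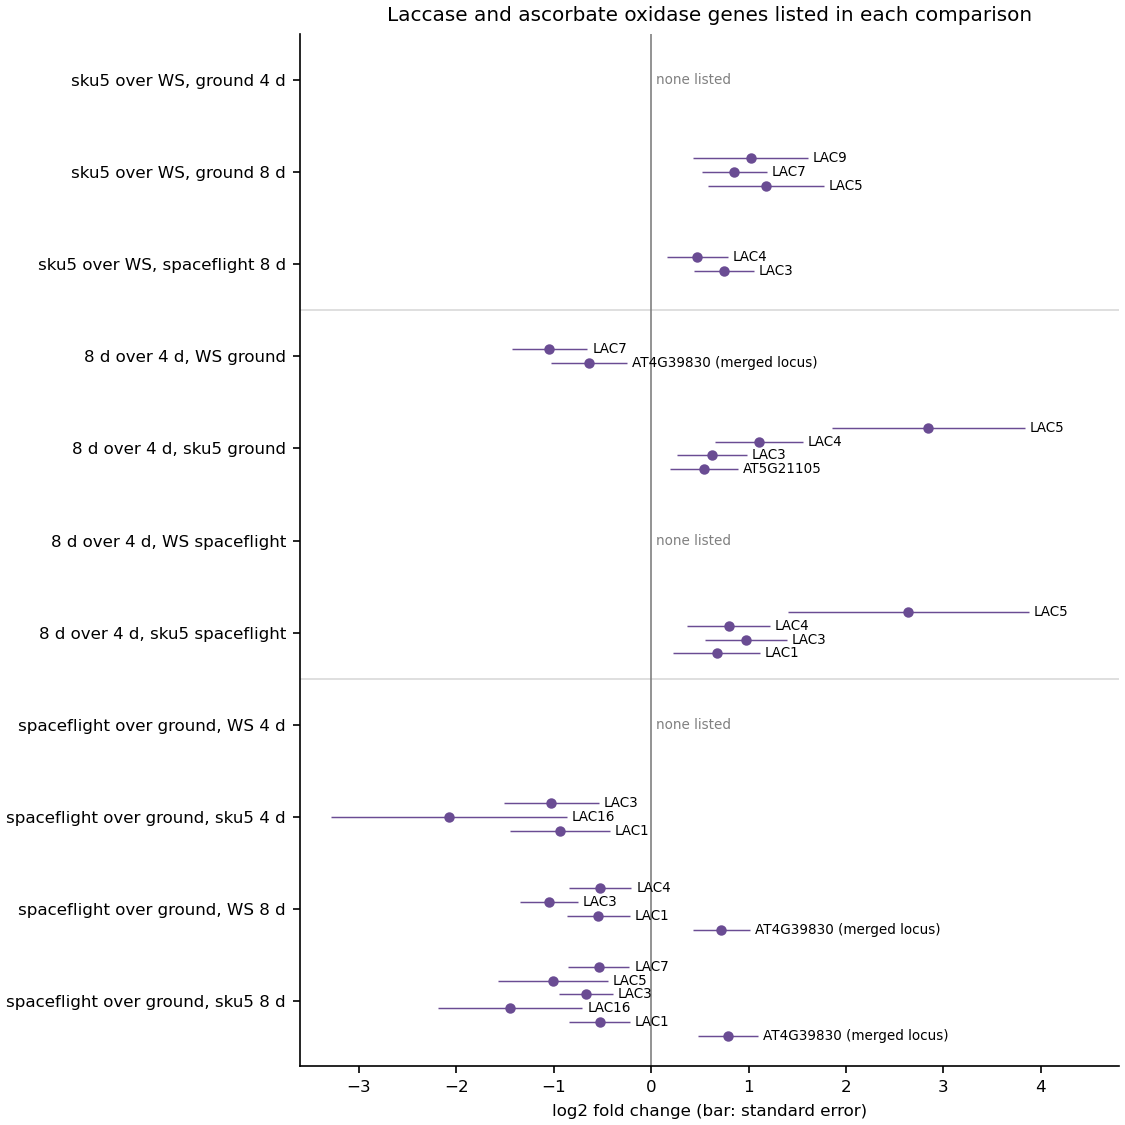
Log2 fold changes, first-named group over second, of the laccase and ascorbate oxidase loci listed in each of the 11 comparisons, with bars of 1 standard error. The entries for genotype lie above 0, and those for spaceflight lie below 0 apart from the merged AT4G39830 locus at 0.72 and 0.79.

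Other genes of root skewing and of GPI-anchored wall proteins were looked up in the same tables. Of 15 skewing genes, 3 are listed, with 6 entries, a share near the 18.6% of all protein-coding genes. SPR1, also named SKU6, whose product binds microtubules and whose mutants have twisted, slanting roots, was lower in sku5 on the ground at 4 d, with 849 FPKM against 1311 FPKM per the authors' deposited table (log2 fold change -0.63, SE 0.31, q = 0.00558). SPR1 rose with age in ground sku5, from 870 to 1392 FPKM, and was lower in spaceflight sku5 at 8 d, at 1103 against 1500 FPKM, in the authors' deposited tables. The auxin efflux carrier gene PIN2 was higher in spaceflight sku5 at 8 d, at 17.4 against 9.89 FPKM (q = 0.00136) in the authors' deposited table. PIN2 also rose with age in spaceflight sku5, from 10.6 to 16.7 FPKM (q = 0.0169), a comparison that shares the spaceflight sku5 libraries of 8 d. EB1B, for a protein of growing microtubule ends, rose with age in spaceflight WS from 10.6 FPKM to 20.8 FPKM per the authors' deposited table. Of 9 genes for other GPI-anchored wall proteins, FLA8 is the listed gene, beside the same 18.6%. It was lower in sku5 on the ground at 4 d, with 48.4 FPKM against 89.5 FPKM per the authors' deposited table, and lower at 8 d than at 4 d in WS in both environments.

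SKU5 was compared with the other loci listed in all 3 genotype tables. Besides SKU5, the loci lower in sku5 each time were BS1, AT2G05910, RTFL2, AT5G01740, OHP, Fes1C, FHL and AT5G02280. AT1G49580 was higher each time, and 4 loci changed sign between the tables. OHP (AT5G02120), which encodes a chloroplast protein with a single membrane helix related to light-harvesting proteins, and FHL were the other loci more than 2-fold lower each time. OHP stood at 33.7 against 79.5 FPKM on the ground at 4 d, 20.1 against 81.4 FPKM on the ground at 8 d and 14.4 against 64.6 FPKM in spaceflight at 8 d in the authors' deposited tables.

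**Figure D5:**
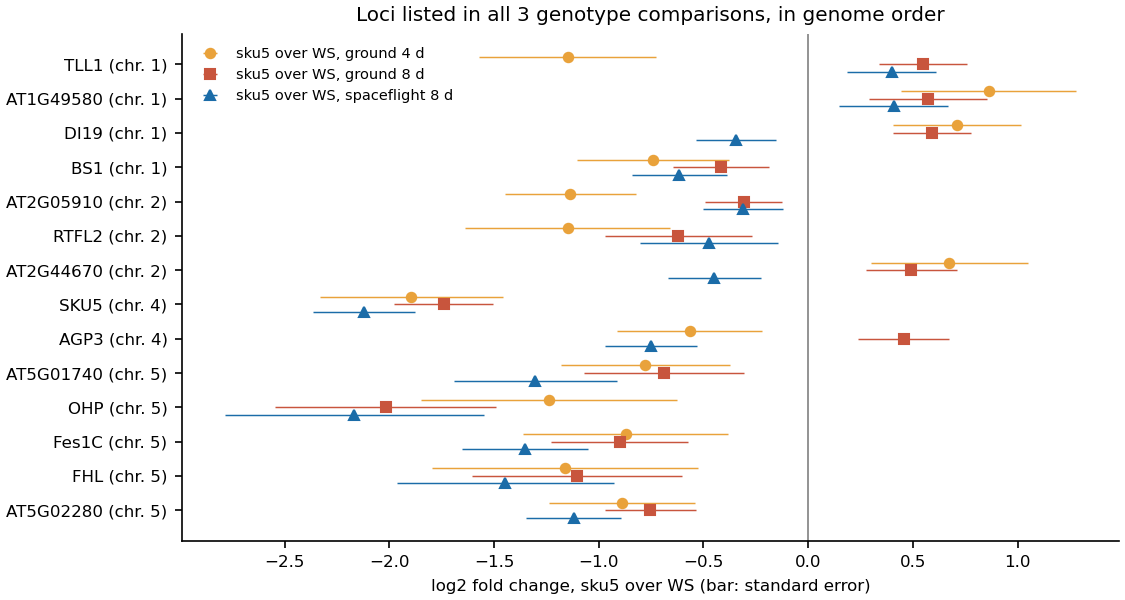
Log2 fold change of sku5 over WS for the 14 loci listed in all 3 genotype comparisons, in genome order with the chromosome in parentheses and bars of 1 standard error. SKU5 lies at -1.74 to -2.12, and the 5 loci of chromosome 5 lie below 0 in each comparison.

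Over the 6 groups in which SKU5 has a value, 321 other loci with a single gene name have values above 0 in all of them. The profile most like that of SKU5 in log2 FPKM was that of Fes1C (AT5G02150), whose name is that of an Hsp70 co-chaperone family, with a Pearson r of 0.964. BS1 (AT1G74500), a small helix-loop-helix protein gene, followed with 0.950 and AT5G02280 with 0.928. Fes1C, BS1 and AT5G02280 are all among the loci lower in sku5 in every genotype comparison. Fes1C and AT5G02280 lie in the chromosome 5 stretch described under other observations. The median r over the 321 loci was 0.19 and 5 exceeded 0.9. The points are group values that share libraries and a large genotype step, and a locus enters only if it was listed in enough tables, so r is a description. SKS1, SKS6 and SKS17 have values in 3, 5 and 3 groups, which is fewer than the 6 asked for, and no likeness is given for them.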

How the data were processed

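The authors deposited 11 tables from 32 root samples, each table comparing a pair of groups of 4. The submitters' processing notes list the programs Cuffdiff, Cufflinks, Picard, STAR 2.5.1b, FastQC 0.11.2 and Trimmomatic 0.36; the sources used here state neither their roles nor a genome build. Per the file headers, the authors deposited for each group and locus a single FPKM value, with a log2 fold change, a signed test statistic (a score), a p-value and a q-value. Depth per sample is unknown. The deposited coordinates do not match TAIR10.1, which was used by gene identifier for names and coding sequences. Python 3.11.15 with pandas 2.3.3 read the tables, and signs were set to sku5 against WS, 8 d against 4 d and spaceflight against ground. A fit over samples had been planned for values per library and was not possible with group values, so the deposited Cuffdiff calls were used. The number of loci the authors tested is not known, and backgrounds are therefore shares of the 4882 loci listed in any table. For the family genes a group's FPKM varied by up to 7.78% from table to table. Coding sequences were aligned with Biopython 1.88. Computations were tested on simulated data. The members, lists and comparisons were chosen with earlier results of these data known. Named genes are the 4 members, any other listed family gene, up to 4 of the largest changes per further list and kind of comparison, and the 3 profiles most like SKU5; loci listed in all 3 genotype tables were named after their values were seen. Alternatives were a stricter q, a 2-fold minimum, loci with a single gene name, a common scale of tables, and a pseudocount of 1.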

Additional observations from a re-analysis of the deposited data

How the results depend on the processing

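Counts of listed SKU5 family genes depended on the threshold. For genotype in spaceflight at 8 d the count of 5 became 3 with q below 0.01, and 1 (SKU5) when only changes reaching 2-fold were counted. For age the count in ground sku5 went from 3 to 1 under either limit, in spaceflight sku5 from 4 to 2 at the stricter q and 1 at 2-fold, and in ground WS from 1 to 0 at 2-fold. For spaceflight at 8 d the counts of 1 in WS and 2 in sku5 both became 0 at 2-fold. The genotype counts on the ground kept their value of 1. Limiting to loci with a single gene name could change none of the 11 counts, because every listed family locus carries a single gene name. All 18 log2 fold changes of family genes moved by at most 0.10, less than their standard errors, with tables on a common scale or with 1 FPKM added. They kept their direction on the common scale, while adding 1 FPKM to both groups cannot change a direction. The 3 genes most like SKU5 kept their order on the common scale. No paired analysis was possible because the tables hold 1 value per group, and for the same reason no sample could be left out.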

Other observations

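Of the 9 loci lower in sku5 in all 3 genotype tables, 5 lie within 190.7 kb of each other on chromosome 5, from 267680 to 458397 in the authors' coordinates, while SKU5 is on chromosome 4. They are AT5G01740, OHP, Fes1C, FHL and AT5G02280, and their levels in the authors' deposited tables were 1.61-fold to 4.49-fold lower in sku5. FHL (AT5G02200), a gene of phytochrome A signalling, stood at 9.97 against 22.3 FPKM on the ground at 4 d, 10.3 against 22.2 FPKM on the ground at 8 d and 8.05 against 21.9 FPKM in spaceflight at 8 d in the authors' deposited tables. AT5G02280 stood at 184 against 341 FPKM, 216 against 364 FPKM and 149.8 against 326 FPKM in the same order. Of the 18 loci of that stretch listed in any table, 15 are listed for genotype, where 41.3% of all 4882 loci are. The stretch was bounded by the loci that drew attention to it, so these counts describe it and test nothing.

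In that stretch 6 loci were listed for genotype on the ground at 4 d, all lower in sku5, 10 on the ground at 8 d, of which 8 were lower, and 14 in spaceflight at 8 d, of which 12 were lower. Within 100000 bases of SKU5 itself, 4 other loci were listed for genotype, each in a single table. The nearest, AT4G12480, 23121 bases away, was higher in sku5 on the ground at 8 d, with 86.0 FPKM against 17.7 FPKM per the authors' deposited table (q = 0.00381). The merged locus of AT4G12490 and AT4G12500 was also higher there, at 96.0 against 63.1 FPKM. In spaceflight at 8 d the merged locus of AT4G12510 and AT4G12520 was lower in sku5, at 682 against 934 FPKM. AT4G12600 was lower there too, at 626 against 848 FPKM.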
